A study of Arabidopsis thaliana with 7 samples.

Results

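The genes described here are 157 nuclear protein-coding genes of *Arabidopsis thaliana* that were listed near open chromatin in every comparison of an *msh1* memory plant with the wild type control coded C2, and in no comparison with the control coded C3. They were chosen by their presence in all 3 lists against C2 and their absence from all 3 lists against C3, out of 27444 protein-coding genes and 2600 genes listed at least once. Open chromatin was assayed by FAIRE-seq in whole rosettes of 3 *msh1* memory line plants (replicates 1, 2 and 3) and 2 wild type plants (replicates 2 and 3). All were in the Columbia-0 background, were raised on MS medium at 24 °C under 12 h of light and 12 h of dark, and were crosslinked with formaldehyde after 14 days. Each list names genes to which a peak was assigned, up to 2 kb upstream or downstream, for 1 memory library set against 1 wild type library. The lists do not say which wild type replicate is C2 and which is C3, give no peak position or height, and do not state whether a peak is a gain or a loss in the memory plant.

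FAIRE (formaldehyde-assisted isolation of regulatory elements) recovers DNA that is not held by nucleosomes after crosslinking, so that promoters and other regulatory sequence in use are enriched. *MSH1* is a nuclear gene whose protein acts in plastids and mitochondria, and memory plants are descendants of *MSH1*-suppressed plants that carry on an altered growth state. A gene listed against a single control depends on the wild type library it was set against, and with 1 library per control code, a property of that wild type plant, its library or its depth cannot be told apart.

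Memory plants 1, 2 and 3 had 1608 (5.86% of all genes), 1296 (4.72%) and 1213 (4.42%) genes listed against C2. Against C3 they had 1305 (4.76%), 1053 (3.84%) and 973 (3.55%) in the same order. Read depth, the peak caller and its threshold are not given in the sources used here, so absence from a list does not show that a peak was absent. The 157 genes made up 0.572% of all genes, a share that the rule itself fixes. The 2600 genes in at least 1 list made up 9.47%.

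Of the 798 genes in all 3 lists against C2, 157 (19.7%) were in no list against C3, 122 were in 1, 93 were in 2 and 426 were in all 3. With the controls swapped, 48 of the 578 genes in all 3 lists against C3 (8.3%) were in no list against C2. Each list against C2 was longer than its counterpart against C3, and the part of list length in these shares was not tested. Just outside the rule stood the 122 genes with 1 listing against C3, of which 88 had it in memory plant 1, 16 in plant 2 and 18 in plant 3. Plant 1 also had the longest list against C3. On the other side stood 168 genes with 2 listings against C2 and 0 against C3, of which 59 lacked plant 1, 45 lacked plant 2 and 64 lacked plant 3. A further 485 genes had 1 listing against C2 and 0 against C3.

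**Figure D1:**
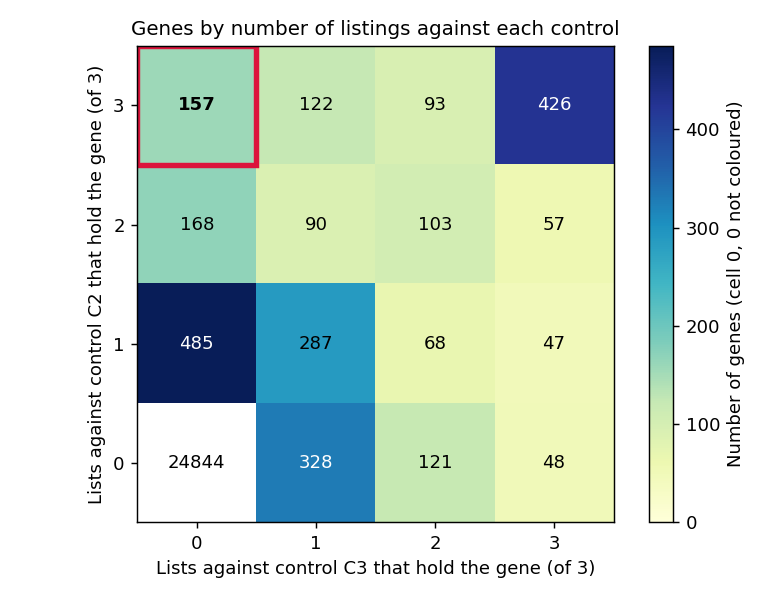
Number of genes by how many of the 3 lists against control C2 (vertical axis) and how many of the 3 lists against control C3 (horizontal axis) hold them, with the 157 genes listed only against C2 outlined. The largest coloured cells are 485 genes with 1 listing against C2 and 0 against C3, and 426 genes in all 6 lists, while 24844 genes were in no list.

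The promoters of the auxin group, of the adjacent genes AT2G41550 and *ACA4*, and of 3 pairs from 1 family each (GATA, COBRA and ECA1 gametogenesis related) are shown because they are the places where a shared sequence could be looked for. Each run is the 250 bases before the gene start in the RefSeq annotation of TAIR10.1, read 5′ to 3′ on the gene's strand, and none of them is a measured peak. Capitals mark any of 8 short motifs on either strand. These were the G-box CACGTG, the W-box TTGAC, the auxin response element TGTCTC, the evening element AAAATATCT, the GAGA repeat GAGAGAGA, the TATA box TATAAA, the TCP site GGCCCA and the telo-box AAACCCTA.
ARF6, chr1:10690989-10691238, minus strand: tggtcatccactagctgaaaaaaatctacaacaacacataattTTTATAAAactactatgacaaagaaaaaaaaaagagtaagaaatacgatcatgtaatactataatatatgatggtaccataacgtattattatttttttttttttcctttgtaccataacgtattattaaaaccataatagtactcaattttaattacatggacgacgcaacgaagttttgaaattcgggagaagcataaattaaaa
AT4G38840, chr4:18125560-18125809, minus strand: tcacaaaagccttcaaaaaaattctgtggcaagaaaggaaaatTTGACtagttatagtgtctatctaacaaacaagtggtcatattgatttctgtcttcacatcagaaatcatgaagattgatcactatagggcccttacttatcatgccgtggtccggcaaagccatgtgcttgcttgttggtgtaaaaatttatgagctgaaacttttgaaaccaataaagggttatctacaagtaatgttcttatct
AT2G41550, chr2:17331174-17331423, minus strand: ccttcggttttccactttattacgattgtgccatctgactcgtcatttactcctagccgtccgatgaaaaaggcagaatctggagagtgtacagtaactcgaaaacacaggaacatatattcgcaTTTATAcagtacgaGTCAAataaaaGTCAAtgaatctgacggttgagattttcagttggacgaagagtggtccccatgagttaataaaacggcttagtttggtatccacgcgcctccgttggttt
ACA4, chr2:17337493-17337742, minus strand: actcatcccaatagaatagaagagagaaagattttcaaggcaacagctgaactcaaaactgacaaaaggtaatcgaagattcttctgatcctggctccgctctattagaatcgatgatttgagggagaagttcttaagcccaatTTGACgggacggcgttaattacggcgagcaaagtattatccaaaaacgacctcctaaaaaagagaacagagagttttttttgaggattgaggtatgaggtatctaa
GATA1, chr3:8685489-8685738, plus strand: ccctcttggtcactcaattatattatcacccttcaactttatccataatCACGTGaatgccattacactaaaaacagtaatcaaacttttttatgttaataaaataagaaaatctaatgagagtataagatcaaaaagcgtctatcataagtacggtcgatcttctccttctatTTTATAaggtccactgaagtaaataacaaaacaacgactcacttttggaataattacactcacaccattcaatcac
GATA4, chr3:22372763-22373012, plus strand: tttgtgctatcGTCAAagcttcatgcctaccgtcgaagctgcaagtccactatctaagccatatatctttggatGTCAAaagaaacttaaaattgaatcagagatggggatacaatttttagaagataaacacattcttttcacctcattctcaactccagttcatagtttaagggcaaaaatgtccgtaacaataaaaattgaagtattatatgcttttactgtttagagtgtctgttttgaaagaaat
COB, chr5:24514339-24514588, minus strand: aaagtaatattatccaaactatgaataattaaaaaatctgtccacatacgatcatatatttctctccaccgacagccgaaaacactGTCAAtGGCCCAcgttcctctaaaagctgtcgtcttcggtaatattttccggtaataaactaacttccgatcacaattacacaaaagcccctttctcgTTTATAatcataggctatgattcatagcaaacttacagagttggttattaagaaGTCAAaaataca
COBL2, chr3:11727774-11728023, plus strand: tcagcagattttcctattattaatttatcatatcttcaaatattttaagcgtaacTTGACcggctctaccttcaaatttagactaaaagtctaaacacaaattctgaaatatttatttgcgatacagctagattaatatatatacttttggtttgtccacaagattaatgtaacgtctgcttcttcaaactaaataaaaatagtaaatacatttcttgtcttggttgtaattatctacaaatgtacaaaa
AT5G36320, chr5:14327258-14327507, minus strand: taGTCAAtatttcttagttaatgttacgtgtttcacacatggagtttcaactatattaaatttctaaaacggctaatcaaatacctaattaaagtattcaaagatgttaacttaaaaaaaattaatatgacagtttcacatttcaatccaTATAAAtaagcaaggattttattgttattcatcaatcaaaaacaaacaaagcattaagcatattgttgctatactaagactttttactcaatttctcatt
AT5G36550, chr5:14377751-14378000, minus strand: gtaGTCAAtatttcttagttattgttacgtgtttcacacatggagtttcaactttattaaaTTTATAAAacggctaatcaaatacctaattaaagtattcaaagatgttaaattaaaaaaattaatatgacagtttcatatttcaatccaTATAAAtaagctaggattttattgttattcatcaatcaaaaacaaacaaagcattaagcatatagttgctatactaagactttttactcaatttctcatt

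Neither auxin gene held the auxin response element in these bases. *ARF6* held overlapping TATA boxes and AT4G38840 a W-box. *GATA1* held a G-box and a TATA box, while its family member *GATA4* held W-boxes and neither of those. *COB* and *COBL2* shared only the W-box, and the neighbours AT2G41550 and *ACA4* did so too. The promoters of AT5G36320 and AT5G36550, in contrast, had long stretches in common. Of the 31-base words in AT5G36320 and its 2 kb flanks, 59.3% also occurred in the same stretch around AT5G36550, and 45.4% the other way. The GATA, COBRA, IQD and ERF pairs shared 0% in both directions, while 0.067% of the words around *UBC18* occurred around *UBC23*, and 0.044% the other way.

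Sorted by what their products are known or predicted to do, the 157 genes spread over many functions. A gene symbol was given for 90 of them, and 67 had none. The sorting was done by hand after the names had been read, so the counts describe the set and carry no comparison. The largest class, with 29 genes, was uncharacterised or known by a domain alone. Kinases, receptors, phosphatases and small GTPase signalling followed with 16, cell wall, cytoskeleton and membrane traffic with 14, and DNA-binding regulators, protein turnover, and ribosome, translation and RNA with 13 each.

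**Figure D2:**
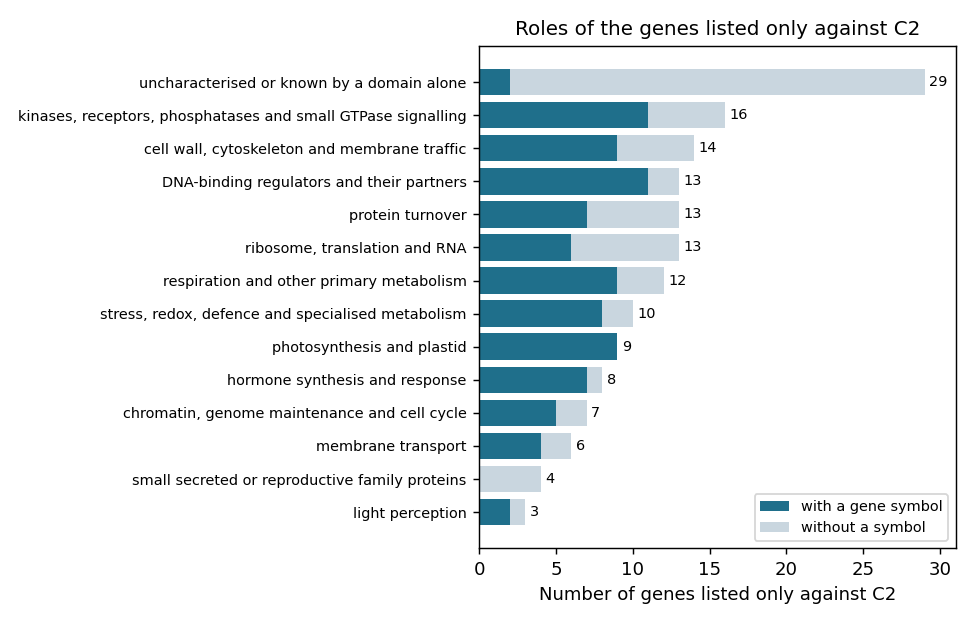
Number of the 157 genes listed only against C2 in each role (bars), divided into genes with a symbol (dark) and without (light). Roles run from 29 uncharacterised genes to 3 genes of light perception, and all 9 genes of photosynthesis and plastid had a symbol.

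Hormone pathways gave 8 genes, of auxin, jasmonate, ethylene, strigolactone, cytokinin and brassinosteroid synthesis or response. *ARF6* (chr1:10685822-10690988, minus strand), an auxin response factor that acts with *ARF8* in growth and flower maturation, was 5167 bp long and had 19010 bp of upstream space to the nearest protein-coding gene. AT4G38840 (chr4:18124978-18125559, minus strand) encodes a SAUR-like protein, of a family of small proteins made early in the auxin response, and had 497 bp upstream. Jasmonate was represented by *OPR3* (chr2:2359114-2362375), which carries out a reduction step of jasmonate synthesis, and by *TIFY11A*, or JAZ5 (chr1:5955155-5957511), a repressor of jasmonate response. *RTE1* (chr2:11105605-11107188) acts on an ethylene receptor, *SMXL7* (chr2:12776208-12780069) is a target of strigolactone signalling, and *ARR9* (chr3:21109059-21111567) is a type-A response regulator that dampens cytokinin signalling. *BEH2* (chr4:17332269-17334355) is a homologue of the brassinosteroid transcription factors BES1 and BZR1.

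Other genes of these hormone families had other patterns of listings. The families below were picked because they hold 1 or more of the 157 genes, so each has at least 1 listed gene by choice, and its counts describe it without a comparison. Among 23 auxin response factor genes, 5 were listed at all (21.7%, against 9.47% of all genes). *ARF8* was in all 6 lists, *NPH4* (ARF7) in 3 against C2 and 1 against C3, *ARF15* in 2 against C2 and 0 against C3, and *ARF20* in 1 against C3 alone. Among 12 JAZ repressor genes, 3 were listed (25%). *TIFY11A* was listed only against C2, *TIFY3B* was in all 6 lists, and *TIFY6A* was in 2 lists against C3 and 0 against C2. Of the 6 BES1/BZR1 genes, 2 were listed (33.3%), *BEH2* only against C2 and *BEH1* in all 6 lists. *SMXL7* was the 1 listed gene of 8 in its family (12.5%), and *ARR9* the 1 listed gene of 10 type-A response regulators (10%). Of all genes 9.47% were listed, but families picked to hold a listed gene could have no lower share than these. By annotation words applied to all genes alike, auxin terms were found for 2 of the 157 genes (1.27%) and 0.696% of all genes, and other hormone terms for 3 (1.91%) and 0.678%. These counts are too small to read as a difference.

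DNA-binding regulators and their partners gave 13 genes, and 3 of them belong to the network that sets the upper and lower sides of leaves. *ATHB-9* (chr1:10796124-10801093, minus strand), also known as PHAVOLUTA, is a class III homeodomain-leucine zipper protein that promotes upper side fate. *ZPR1* (chr2:18733275-18734341, minus strand) encodes a small LITTLE ZIPPER protein that pairs with such factors and blocks them. *YAB3* (chr4:72545-75576, minus strand) is a YABBY factor of the lower side. *ATHB-9* was the 1 listed gene of 5 in its class and *ZPR1* the 1 listed gene of 3 LITTLE ZIPPER genes, and among 6 YABBY genes *YAB5* was in all 6 lists. Families this small are too few genes to set beside the 9.47% of all genes that were listed. These 3 genes were put together after their names had been seen.

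*GATA1* (chr3:8685739-8687726) and *GATA4* (chr3:22373013-22374554) were listed only against C2 out of 29 GATA transcription factor genes. Of the 29, 8 were listed (27.6%, against 9.47% of all genes). This family too was picked because it holds genes listed only against C2, so its share carries no comparison. *GATA3* and *GATA17* were in all 6 lists, and *GATA24* was in 3 lists against C2 and 1 against C3. The remaining regulators with a symbol were the ethylene response factor genes *ERF020* and *ERF022*, the LOB domain gene *LBD21*, *STKL1*, the homeobox gene *NDX*, and *OXS2*, a zinc finger gene of stress response. Transcription factor families by annotation words took 9 of the 157 genes (5.73%), against 5.28% of all genes.

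**Figure D3:**
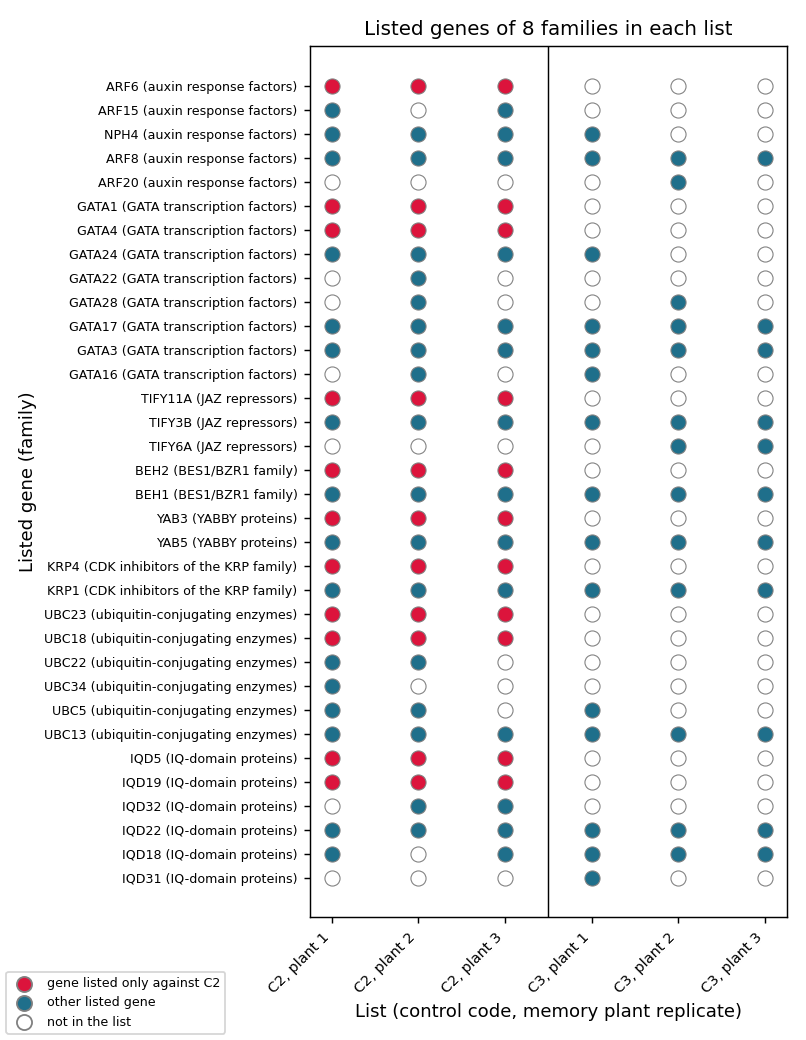
Presence (filled) or absence (open) in each of the 6 lists (columns: control code and memory plant) for the 34 listed genes of 8 families that contain genes listed only against C2 (rows). The 11 genes listed only against C2 are filled in the 3 columns on the left alone, while *ARF8*, *GATA3*, *GATA17*, *TIFY3B*, *BEH1*, *YAB5*, *KRP1*, *UBC13* and *IQD22* are filled in all 6.

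Chromatin, genome maintenance and cell cycle gave 7 genes. *SOG1* (chr1:8996714-8999917, minus strand) is the plant-specific NAC factor that directs the response to DNA damage. *E2FC* (chr1:17634697-17637809) restrains cell cycle genes, and *KRP4* (chr2:13873362-13876737) inhibits cyclin-dependent kinases. *KRP4* was 1 of 2 listed among 7 KRP genes (28.6%, against 9.47% of all genes), the other being *KRP1*, in all 6 lists. The KRP family was picked for holding *KRP4*, so its share carries no comparison. *MAA3* encodes a probable helicase, *MBD2* (chr5:13523403-13525834, minus strand) a protein with a methyl-CpG-binding domain, AT5G59690 a histone H4, and AT3G07568 a protein related to Fanconi anemia group D2. Words for chromatin, DNA methylation and silencing were found for 2 of the 157 genes (1.27%) and 0.998% of all genes.

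Light perception was represented by *PHYE* (chr4:10042137-10046346, minus strand), the 1 listed gene of 5 phytochromes, by *FAR1* (chr4:8614060-8618173), a transcription factor of phytochrome A signalling, and by AT1G50280 of the NPH3 family. The phytochromes were picked for holding *PHYE*, so their share (20%, against 9.47% of all genes) carries no comparison. Photosynthesis and plastid genes numbered 9. They included *LHCB1.1*, a light-harvesting chlorophyll protein, *PNSB5* of the chloroplast NAD(P)H dehydrogenase complex, *LPA2* and *PSA3*, which act in the assembly of the photosystems, and *PBCP*, a phosphatase of photosystem core proteins. *FTSH7* (a protease), *FTRA1* (ferredoxin-thioredoxin reductase), *MGD3* (galactolipid synthesis) and *FBA3* (plastid aldolase) completed the class. In mitochondria and primary metabolism, 12 genes included *CI51* of respiratory complex I, *NAD-ME2* (malic enzyme), *PFK1* (phosphofructokinase) and *GGAT1* of photorespiration.

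Among 16 signalling genes stood *MPK5* (a MAP kinase), the receptor kinases *CRK40* and *LECRK42*, *IREH1*, the phosphatase genes *PLL4* and *B'ZETA*, *ROPGEF6*, which activates ROP GTPases, *LYM1*, a receptor of bacterial peptidoglycan, and the calmodulin-binding *IQD5* and *IQD19*. Kinases by annotation words took 6 of the 157 genes (3.82%), against 3.67% of all genes. Immune receptor and defence words were found for 1 gene (0.637%), against 2.91% of all genes. That gene was *LECRK42*, and the words did not match *LYM1* or *HR1*. The count is too small to read as a difference. Protein turnover took 13 genes, among them the ubiquitin-conjugating *UBC18* and *UBC23*, the ligase gene *UPL4*, the proteasome subunit gene *RPN2B*, the xylem protease gene *XCP2* and *SBT1.2* (SDD1), a subtilase that limits stomatal density. Words for F-box, ubiquitin and proteolysis gave 13 genes (8.28%), against 7.94% of all genes.

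*COB* (chr5:24511152-24514338, minus strand), which directs cellulose deposition in expanding root cells, and *COBL2* (chr3:11728024-11730350), which acts in seed coat mucilage, were the 2 listed genes of 12 in the COBRA family (16.7%, against 9.47% of all genes), a count too small to read as a difference. Other wall and traffic genes were *AGP2*, *GATL9*, *SP1L2*, *ATRABG3A* and *ATG18B*. Membrane transport gave 6 genes, including the vacuolar calcium pump gene *ACA4* and *NPF2.11* (GTR2), a glucosinolate importer. Stress, redox, defence and specialised metabolism gave 10 genes, with *CLPB1* (the HSP101 disaggregase needed for acquired heat tolerance), *PCO2* (an oxygen-sensing cysteine oxidase), *GSTF6*, *COR413PM1* (cold-regulated), *HR1* (a homologue of the mildew resistance protein RPW8), *PAL3* (phenylalanine ammonia-lyase) and *UGT1* (a glucosyltransferase). Ribosome, translation and RNA gave 13, including *RPL10A*, *RPS30A*, *APUM24* and *SKI3*. The remaining 4 were genes of small secreted proteins, AT5G36320 and AT5G36550 among them.

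The 157 genes lay in wider upstream space than genes overall. Their median distance to the nearest protein-coding gene upstream was 1624 bp, against 300.5 bp for genes listed only against C3, 2187 bp for genes in all 6 lists, 1366.5 bp for all listed genes and 945 bp for all genes. Upstream space exceeded 2 kb for 67 of them (42.7%), against 18.8% of genes listed only against C3, 51.6% of genes in all 6 lists, 40.4% of all listed genes and 29.4% of all genes. It was under 500 bp for 45 (28.7%), against 58.3% of genes listed only against C3 and 35.4% of all genes. Downstream space had a median of 385 bp, against 244 bp for genes listed only against C3, 783.5 bp for genes in all 6 lists, 488 bp for all listed genes and 400 bp for all genes. Median gene length was 2137 bp, against 2078 bp for all genes, and median GC content over the gene and its flanks was 36.6%, against 36.5%.

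**Figure D4:**
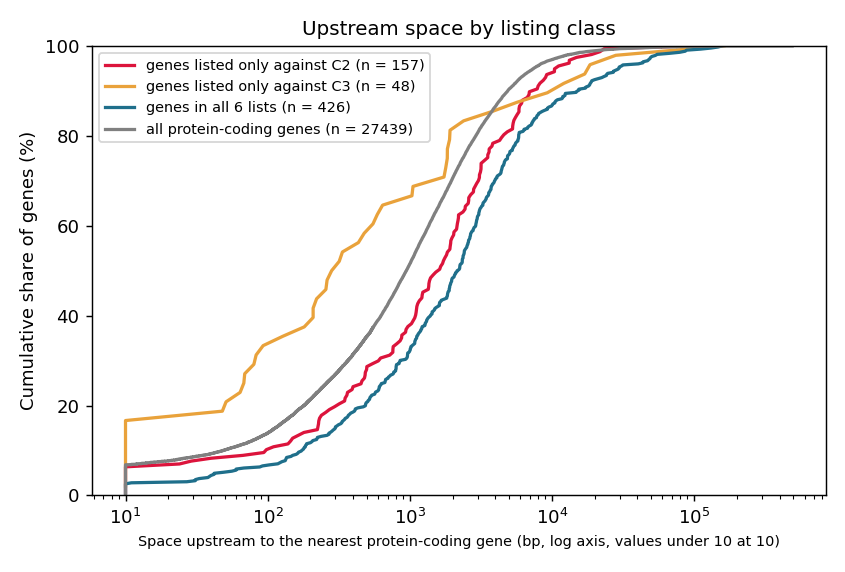
Cumulative share of genes (vertical axis, %) by space upstream to the nearest protein-coding gene (horizontal axis, bp, log scale, values under 10 bp drawn at 10) for 4 classes. The curve of the 157 genes listed only against C2 (median 1624 bp) runs between genes in all 6 lists (2187 bp) and all genes (945 bp) over most of its range. At the median, the 48 genes listed only against C3 lie furthest left (300.5 bp).

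The gap in upstream space between the C2 and the C3 classes narrowed when the rule rested on fewer plants. Without memory plant 1, genes listed only against C2 had a median of 1401 bp and genes listed only against C3 had 855.5 bp. Without plant 2 the medians were 1575 bp and 571 bp, and without plant 3 they were 1459 bp and 514.5 bp. Each relaxed set contains every gene of the full set for its control, so these medians are not independent of the full ones. Among genes in all 3 lists against C2, the median upstream space was 1624 bp with 0 listings against C3, 1462 bp with 1, 1578 bp with 2 and 2187 bp with 3. No test was run on any of these values.

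Repeated sequence was lower around the 157 genes than around the genes in all 6 lists. The median share of 31-base words found more than once in the genome was 0.997%, against 3.08% for genes in all 6 lists and 0.423% for all genes. It was 1.72% for genes listed only against C3 and 1.28% for all listed genes. Genes in all 3 lists against C2 had 1.19% with 1 listing against C3 and 0.915% with 2, so the value was not particular to the 157. By the level that marks the top 10% of all genes (10.6%), 16 of the 157 (10.2%) were rich in repeats. The share was 16.7% of genes listed only against C3, 30% of genes in all 6 lists and 18.6% of all listed genes. The highest values were 87.5% at AT5G36320, 75.8% at *PDX1L4*, 75.5% at AT5G36550, 41.7% at AT3G62470, 32.7% at AT5G25754 and 27.7% at AT1G21940. AT5G25754, annotated with the same product as AT5G25757, had 1760 words of its 7935 that also occurred inside that gene, and AT3G62470 had 1307 of 6228 inside AT5G14820, another pentatricopeptide repeat gene. *PDX1L4* had 1032 of 4944 inside *APD4*, and AT1G21940 had 1186 of 5776 inside AT1G11270. None of these 4 partner genes was in any list. How reads that match more than 1 place were treated is not given in the sources used here, so listings of these genes are uncertain.

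Gene-poor regions (at most 41 genes within 100 kb on each side) held 24 of the 157 genes (15.3%). They held 18.8% of genes listed only against C3, 28.6% of genes in all 6 lists, 21.7% of all listed genes and 11.2% of all genes. *ARF6*, *ATHB-9*, *OPR3*, *MGD3*, *COBL2*, *CRK40* and *MBD2* were among the 24. Chromosomes 1 to 5 carried 33, 27, 33, 24 and 40 of the genes. That was 21%, 17.2%, 21%, 15.3% and 25.5% of them, and 26.1%, 15.7%, 19.9%, 15.2% and 23.1% of all genes.

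A peak within 2 kb of a gene can also lie within 2 kb of its neighbour. Of the 157 genes, 104 (66.2%) had no listed gene within 4 kb, close to the 66.4% of all listed genes. The share was 60.4% of genes listed only against C3, 70.9% of genes in all 6 lists and 79.7% of all genes. A gene listed against C2 stood within 4 kb of 47 (29.9%), against 27.7% of all listed genes and 16.6% of all genes. A gene listed against C3 stood within 4 kb of 29 (18.5%), against 27.1% of genes listed only against C3, 23.5% of genes in all 6 lists, 23.6% of all listed genes and 14.5% of all genes. A gene in all 6 lists was that close to 6 of them (3.82%), against 5.46% of all listed genes and 3.32% of all genes, so this count was near the background. SSP4b overlapped *PHYE*, AHA11 overlapped *NPF2.11*, SYT3 stood 1624 bp from *PAL3*, AT5G36310 stood 1842 bp from AT5G36320, PDX11 stood 3510 bp from *PDX1L4* and TPR2 stood 3854 bp from *APUM24*. Whether such a neighbour and the gene beside it were listed for the same peak cannot be told from the lists. AT2G41550 and *ACA4*, 876 bp apart on chromosome 2, were the only 2 of the 157 within 4 kb of each other, and a peak between them would count for both.

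The lists are ordered in a way that was not explained in the files. On each chromosome, the rows run through the genes by position 3 times, at first over the plus strand, then over the minus strand and last over both strands mixed. Of the 157 genes, this last run held 51 (32.5%), 57 (36.3%) and 55 (35%) in the lists of memory plants 1, 2 and 3, against 30.3%, 35.1% and 34.9% of the whole lists against C2. It held 19.2%, 21.8% and 22.8% of the genes in all 6 lists. By gene, 96 of the 157 were never in the last run, 48 were in it for all 3 plants, 7 for 1 plant and 6 for 2 plants. *ARF6* was in the last run for plants 2 and 3 but not plant 1, and *ATHB-9* for plants 1 and 2 but not plant 3.

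Promoter motifs were counted over 300 bases, from 250 before the gene start to 50 after it, on both strands. The G-box, bound by bZIP and bHLH factors of light and abscisic acid response, was found in 24 of the 157 genes (15.3%), against 8.33% of genes listed only against C3, 11% of genes in all 6 lists and 7.68% of 27443 promoters in all. With all 3 lists against C2, the G-box share was 17.2% with 1 listing against C3, 9.68% with 2 and 11% with 3, so that it followed no order along the rule. It was 8.93% in the genes with 2 listings against C2 and 0 against C3. The auxin response element was found in 15 of the 157 genes (9.55%). It was found in 3 of the 48 genes listed only against C3 (6.25%), 13.8% of genes in all 6 lists, 13.1% of all listed genes and 14.2% of all promoters. Among genes in all 3 lists against C2, its share was 17.2% with 1 listing against C3 and 8.6% with 2, so that it followed no order along the rule. The W-box was found in 57.3% of the 157 genes and 50.5% of all promoters, the TATA box in 54.1% and 52.1%, the TCP site in 18.5% and 15.5%, the GAGA repeat in 6.37% and 8.38%, the telo-box in 3.82% and 6.22%, and the evening element in 1.27% and 2.82%. In the same order, the shares of all listed genes were 50.8%, 50.6%, 18.8%, 9.42%, 6.58% and 2.73%. Those of the 48 genes listed only against C3 were 60.4%, 50%, 22.9%, 14.6%, 8.33% and 2.08%.

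**Figure D5:**
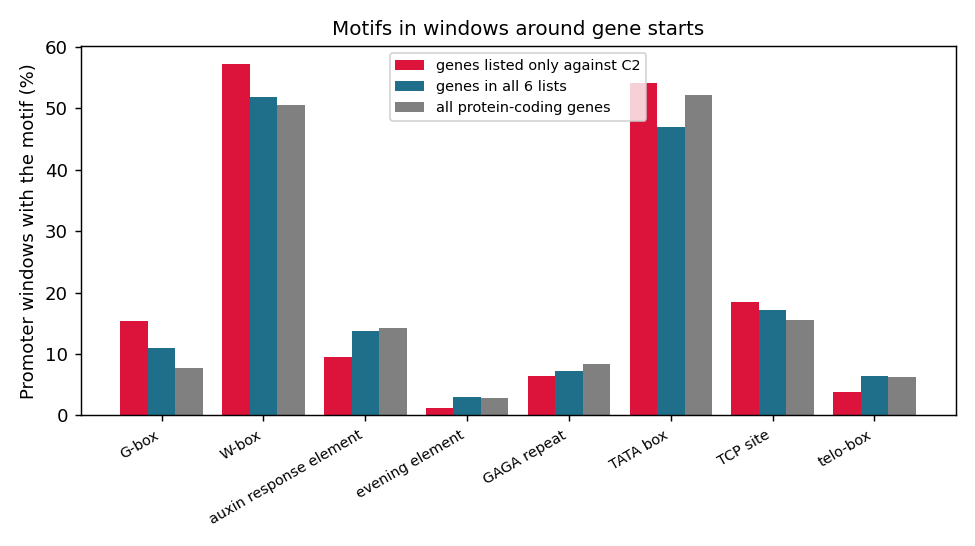
Share of promoter windows (vertical axis, %) that hold each of 8 motifs (horizontal axis) for the genes listed only against C2, the genes in all 6 lists and all protein-coding genes. The G-box stands at 15.3%, 11% and 7.68% in that order, and the auxin response element at 9.55%, 13.8% and 14.2%.

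The 24 promoters held 31 G-boxes, and 6 of them held more than 1. The sites of *BEH2*, *AGP2* and *UBC18* are shown with 10 bases on either side, with the G-box in capitals, because these are the promoters with several sites, a symbol and all sites inside the printed range. They were chosen after the counts had been seen.
AGP2, chr2:9539163-9539188, minus strand: ataaacataaCACGTGtcaatactta
AGP2, chr2:9539114-9539139, minus strand: taagagaaaaCACGTGgcagagatct
BEH2, chr4:17334455-17334480, minus strand: ataaataggaCACGTGgaagctgact
BEH2, chr4:17334420-17334445, minus strand: aaatcgatcaCACGTGtagaaacaga
BEH2, chr4:17334401-17334426, minus strand: aaacagaccaCACGTGtggagacaaa
UBC18, chr5:17246130-17246155, minus strand: ggataaacgaCACGTGtgaacacgaa
UBC18, chr5:17246060-17246085, minus strand: ttgactctttCACGTGtgccctttcc

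The sites of *BEH2* began 115, 80 and 61 bases before the gene start, those of *UBC18* 157 and 87, and those of *AGP2* 215 and 166. Other genes with a G-box and a symbol included *FAR1*, *GATA1*, *ERF020*, *MPK5*, *FTSH7*, *PNSB5*, *GGAT1*, *NAD-ME2*, *HVA22D*, *UPL4* and *GSTF6*. Whether open chromatin lay over any of these sites was not measured here.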

How the data were processed

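The assay, groups and growth conditions are those of the labels. The authors deposited 6 gene lists with no peak values (a locus identifier, a symbol and a description each), so the analysed value is presence or absence. The labels name Trim Galore 0.4.1, cutadapt 1.9.1, Bowtie2 and the TAIR10 build. The peak caller, threshold and depth are not given in the sources used here. Decrossed pools of 3 plants per genotype were a technical control and were not analysed here.

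Listed loci were looked up in RefSeq's annotation of assembly TAIR10.1 (27444 nuclear protein-coding genes, 0 unmatched). Coordinates are those of genes in that assembly. Space was measured to the nearest protein-coding gene. Repeats were 31-base words found more than once in the genome, in a gene plus 2 kb at each end. Function groups were found by words in RefSeq symbols and products, for all genes alike. Python 3.11.15, numpy 2.4.6 and matplotlib 3.10.9 were used. The logic of the list rule and motif search was tried, in a separate copy, on simulated data. Planted cases were bound to be found there, so this trial says nothing about error rates in the lists.

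The 157 genes, the word lists, motifs and families were chosen with earlier results of these data known. In the paragraphs on function, every gene with a symbol could be named, by function and not by any measured value. Elsewhere genes were named for a computed property, such as repeat share, gene density, close neighbours or G-boxes. Since the lists chose the genes, and each list is 1 library against 1 library, no test was run and no p-value is given. The wild type and memory replicates are separate plants by the labels. Alternatives left out each memory plant in turn, changed the number of lists required, swapped the controls, changed the words searched, or counted neighbours once.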

Additional observations from a re-analysis of the deposited data

How the results depend on the processing

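Leaving out memory plants relaxes the rule, so the number of genes listed only against C2 ran from 220 to 307, against 157. Leaving out plant 1 gave 307, and leaving out plant 3 gave 241. Requiring at least 2 of the 3 lists against C2 gave 325, allowing at most 1 list against C3 gave 279, and the swapped rule gave 48 genes listed only against C3. The share of recurrent C2 genes that were in no list against C3 ran from 23.7% to 33.1% when 1 plant was left out, against 19.7%. The number was 156 with close neighbours counted once and 128 without the genes near a gene listed against C3. Median upstream space ran from 1401 to 1575 bp, median space to both neighbours from 2711 to 2936 bp and median length from 2166 to 2215 bp when plants were left out, against 1624, 2926 and 2137 bp. Each set with a plant left out contains all 157 genes, so the closeness of these medians is partly fixed in advance. Words for plastid and mitochondrial function were found for 0.637% of the genes in RefSeq products, against 1.84% of all genes. They were found for 5.1% in the deposited descriptions alone or both together. Those descriptions cover listed genes only, so they give no share of all genes. The share thus rested on the source of the words and is not read as low or high. Of 96 alternatives, 86 stayed within the spread or the factor set for them, and 10 moved. The spread was a 95% interval over genes, exact binomial for shares and by rank for medians, and the factor for counts was 1.5. The lists chose the genes, which are not independent replicates, so this spread measures no variation between plants. For word groups of few genes it is wide, and staying within it says little. Those that moved were the number of genes at 307, 241, 325, 279 and 48, the share at every plant left out, and the plastid and mitochondrial words. Most of the rest were word or motif shares, and counting neighbours once took the set only from 157 to 156 genes. The total of 86 therefore does not show that the number or the share is stable. The alternatives for upstream space, and those without any listed neighbour, were added after seeing the data. Every memory plant has a list against each control, so the lists are paired by memory plant, but no paired test was run. The control codes are tied to no replicate number. Depth is unknown, so no counting interval is given for any list.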
